A study of Mus musculus with 9 samples.

Results

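The genes described here encode subunits of the mitochondrial respiratory chain and of ATP synthase, 82 genes in all, out of 18193 genes that the arrays measured under a single symbol. They were taken by symbol, without regard to any difference between the groups: the Nduf subunits of complex I, the Sdh subunits of complex II, the Uqcr subunits and Cyc1 of complex III, cytochrome c, the Cox4 to Cox8 subunits of complex IV and the Atp5 subunits of complex V. These symbols covered 168 of the 45101 probe sets, and each gene was read from the probe set with the highest mean signal over the 9 arrays. Complex I had 34 genes, complex II 4, complex III 9, cytochrome c 1, complex IV 17 and complex V 17. Some 79 of the 82 genes were bright enough to be tested, and Ndufb4, Cox7b2 and Cox8b were not.

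The samples were mouse renal vesicles of E12.5 embryos, the first epithelial structures of the developing nephron, cut out of kidney sections with a laser. There were 4 samples from Lim1 mutant kidneys and 5 from wild-type kidneys, each a pool of about 30 to 50 vesicles on its own Affymetrix array after 2 rounds of RNA amplification. Lim1, with the current symbol Lhx1, encodes a transcription factor of the early nephron, and the comparison of these groups is the one the series was designed for. The submitters call the samples biologically independent. The sources used here do not state the mutant allele, the strain, any Cre driver or the number of embryos or litters behind a pool, so p-values measure the spread between these 9 samples, whose number limits the precision.

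The respiratory chain passes electrons from NADH, at complex I, and from succinate, at complex II, through ubiquinone to complex III, then through cytochrome c to complex IV, where oxygen is reduced. Complexes I, III and IV pump protons across the inner mitochondrial membrane, and complex V uses the return of those protons to make ATP. All subunits of complex II and most of those of the other complexes are encoded in the nucleus. The transcription factors NRF1, GABP (also called NRF2), YY1 and ERRα are known to act at promoters of many of these nuclear genes.

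Since the genes are known for shared promoter motifs, RefSeq promoters (build GRCm38.p6, 250 bases before to 50 bases after each gene's start) were searched on both strands, and 67 of the 82 genes had an entry. The NRF1 motif, which is GCGC, any base and then TGCGC, was present in 15 of 67 promoters (22.4%), against 7.17% of the promoters of 17492 protein-coding genes. GABP's CCGGAAG was present in 17 (25.4%, against 12.9%), and YY1's AANATGGC in 15 (22.4%, against 7.46%). At least one of these 3 motifs was found in 41 of 67 promoters (61.2%), against 23.9% of the coding genes. ERRα's TCAAGGTCA was rarer, in 2 of 67 promoters (2.99%, against 0.377%). The windows below show 20 bases on either side of a match before the gene's start, 5′ to 3′ on the gene's strand, with the match in capitals. The first 3 carry the NRF1 motif with A as the middle base, a form that reads the same on both strands and was present in 4 of 67 promoters (5.97%, against 1.47%). The next pair carry the GABP motif on the opposite strand, read here as CTTCCGG. They come from genes of complexes II, IV and V, whose values follow under each complex.
Atp5g2, chr15:102671060-102671109, minus strand: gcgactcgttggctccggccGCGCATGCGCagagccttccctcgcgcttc
Atp5k, chr5:108434420-108434469, minus strand: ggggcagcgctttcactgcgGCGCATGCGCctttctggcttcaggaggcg
Cox6a1, chr5:115349091-115349140, minus strand: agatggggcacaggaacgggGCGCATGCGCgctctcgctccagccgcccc
Sdhd, chr9:50603869-50603915, minus strand: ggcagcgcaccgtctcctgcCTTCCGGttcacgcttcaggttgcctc
Atp5e, chr2:174464177-174464223, minus strand: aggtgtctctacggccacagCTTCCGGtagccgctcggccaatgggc

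Across the whole set, no respiratory chain gene passed the test between Lim1 mutant and wild-type vesicles, and small differences above 0 outnumbered those below it. Differences are given as log2 of mutant over wild type, from a limma fit to all 27022 probe sets that were bright enough, with Benjamini-Hochberg adjustment over all of them at 0.05. At that threshold 0 of 79 genes were called, against 0.0333% of all probe sets (9 of 27022), and the members' adjusted p-values ran from 0.696 to 0.998. At an unadjusted p under 0.05 there were 3 genes above 0 and 0 below, against 3.8% and 2.87% of all probe sets in those directions, so that share of the members was near the background. On the normalized values, in no gene did all 4 mutant arrays lie above, or all 4 below, the 5 wild-type arrays, against 2.25% of all probe sets. Signals of single arrays are quoted as deposited from here on, and what is said of which arrays were high or low refers to the normalized values, unless the deposited ones are named.

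The 82 differences had a median of 0.11, and 56 were above 0 and 26 below. Over all 18193 genes the median was 0.04, with 53.6% above 0, against 68.3% of the respiratory chain genes. Among tested genes only, 69.6% of the 79 members were above 0 (median 0.12), against 56.5% of all 13194 (median 0.08). Over all 82 and all 18193 genes, the gap between these shares depended on the scaling. With each array centred on its median in place of quantile normalization, 53.7% of the members were above 0, against 48.1% of all genes, and the medians were 0.02 and -0.02. With no normalization between arrays the shares were 67.1% of the members and 57.0% of all genes, with medians of 0.12 and 0.07. The differences ran from -0.71 to 1.21, both ends held by genes too dim to test, and 73 of 82 lay within 0.5 of 0. As these are pools of vesicles, a smaller share of cells of a type and less RNA per cell cannot be told apart in any of these values.

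After quantile normalization these genes had smaller standard errors than most. The median standard error of the 79 tested genes was 0.24 on the log2 scale, against 0.45 over the 13194 genes tested. For 56 of 79 (70.9%) the 95% interval lay wholly within 1 log2 unit of 0, which is to say that it held no change of 2-fold or more in either direction, against 23.0% of all tested genes. In 19 of the 79 it lay within 0.5. In the lists of other genes described below, the share within 1 log2 unit ran from 16.7% to 84%. The lowest was that of regulators of mitochondrial biogenesis, and the highest that of mitochondrial carriers, porins and import proteins. The cytosolic ribosome had 81.0%, with a median standard error of 0.15. The part of brightness and of quantile normalization in these errors was not tested. The forest plot of the differences by complex shows the narrow spread around 0 and the few genes with wide intervals.

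**Figure D1:**
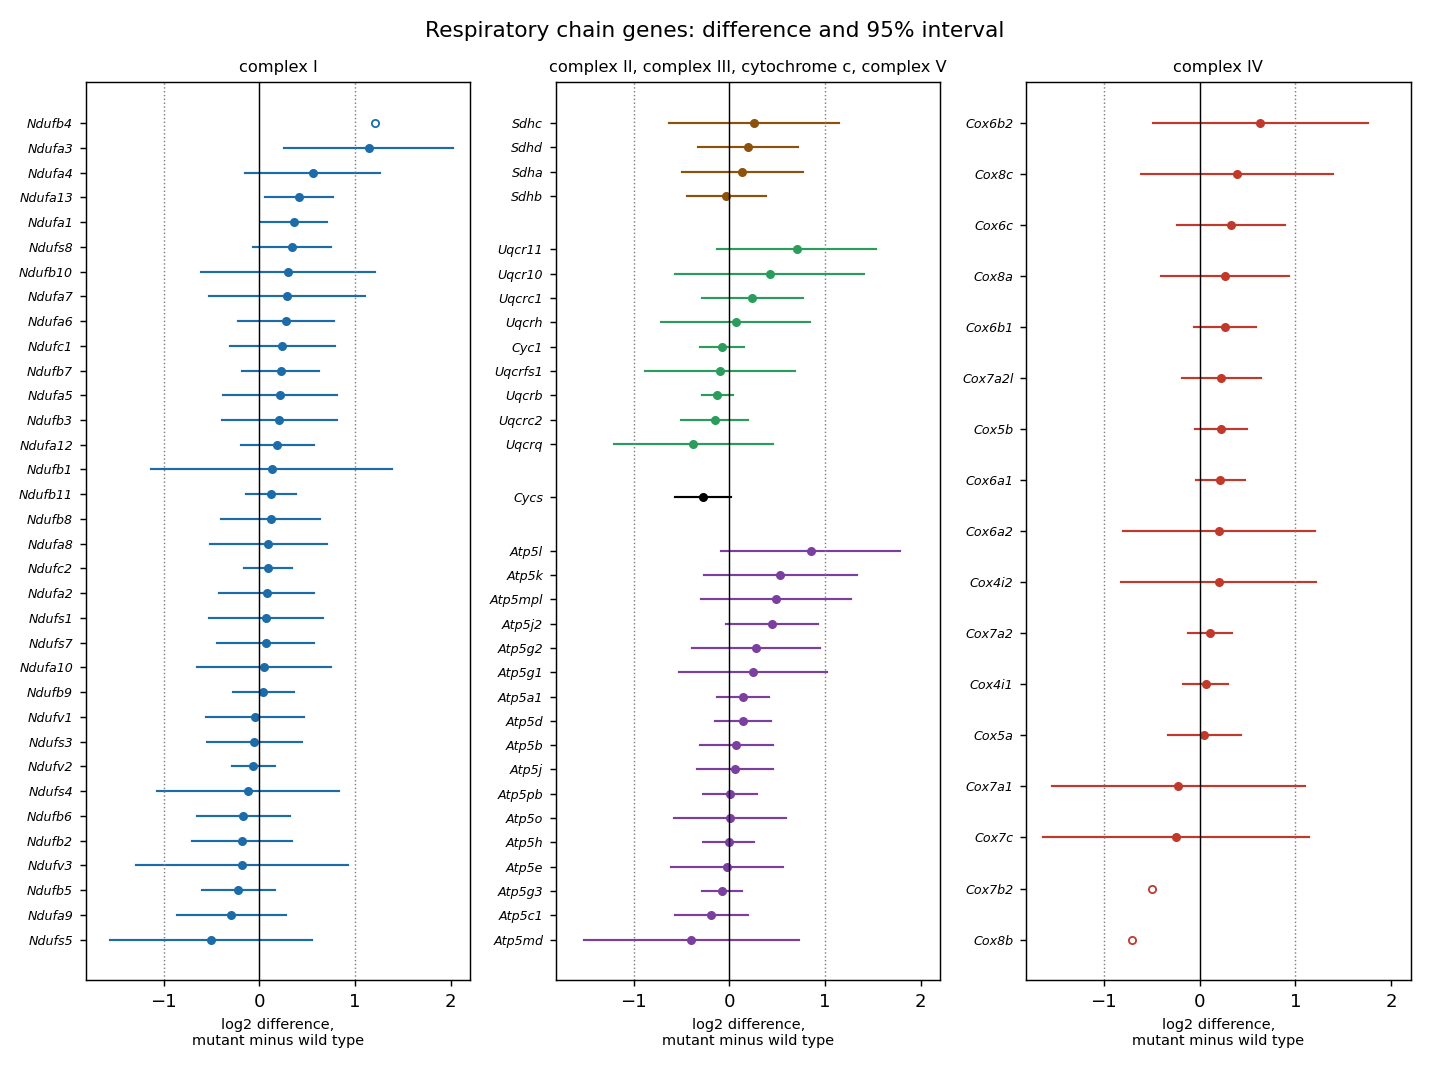
Log2 difference, mutant minus wild type, of each of the 82 respiratory chain genes by complex, with 95% confidence intervals from limma for the 79 tested genes (4 mutant and 5 wild-type arrays). Most values lie within 0.5 of 0, and Ndufa3 and Atp5l are the tested genes farthest above it.

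The level of the whole set varied more within each group than it differed between them. The members' level on an array was taken as the median over the 82 genes of the deviation of the normalized log2 value from that gene's mean over the 9 arrays. It was -0.17, 0.14, 0.04 and 0.15 on mutant arrays 1 to 4, against 0.07, -0.10, 0.11, -0.27 and -0.06 on wild-type arrays 1 to 5. Mutant array 1 lay below most wild-type arrays, wild-type array 4 was the lowest of all, and the groups overlapped. Many genes were low on these 2 arrays: 18 genes had their lowest value of the 9 on mutant array 1 and 32 on wild-type array 4. Mutant arrays 2 and 4 held the highest value for 21 and 18 genes.

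**Figure D2:**
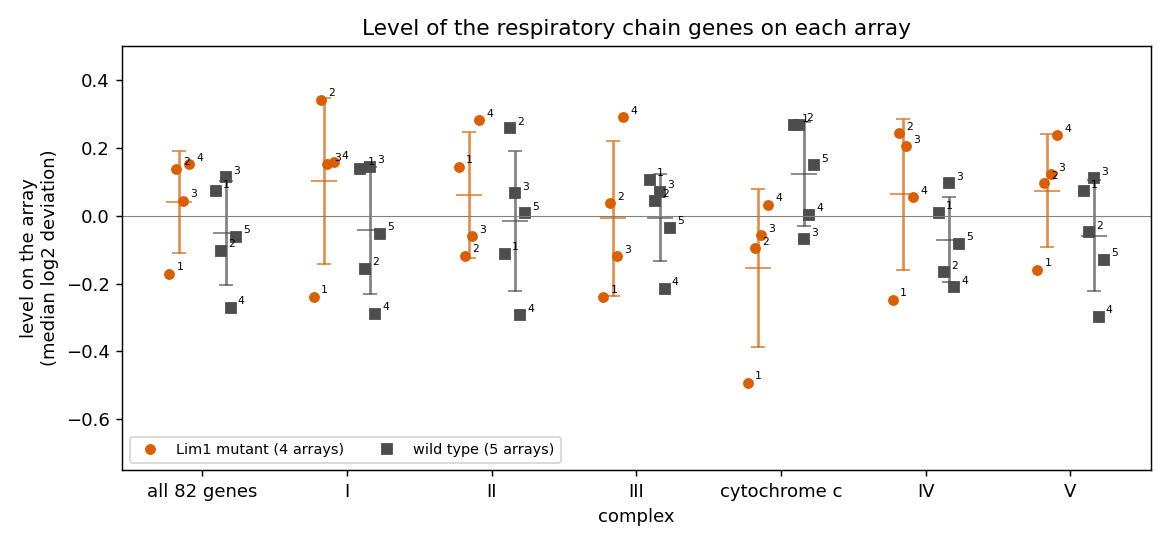
Median deviation of the respiratory chain genes from their mean over the 9 arrays (log2 scale), for each array and complex, with mutant arrays left of wild-type arrays and each group's mean and SD as bars. Over all 82 genes mutant arrays lie between -0.17 and 0.15 and wild-type arrays between -0.27 and 0.11.

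Several facts of the arrays bear on these values. The probe set of Lhx1 that was called ranged over 6.88 to 10.5 signal units among mutants and 2327 to 17587 among wild types, a difference of -6.64 ± 0.57 (SE, limma adjusted p = 0.00329), while another Lhx1 probe set differed by -0.86 (adjusted p = 0.833). Whether either probe set lies in the altered stretch of Lhx1 is unstated in the sources used here. All 13 renal vesicle markers were bright enough to be tested, and their summed signal ranged over 208226 to 237569 in mutants and 134498 to 319266 in wild types. Of ureteric bud markers other than Lhx1, 11 of 14 had a difference below 0, with summed signals of 11367 to 22289 on mutant arrays and 21001 to 86966 on wild-type arrays. All 15 endothelial markers and 9 of 11 stromal markers were below 0. The endothelial sums were 5653 to 7191 in mutants and 5977 to 25564 in wild types, and the stromal sums 20774 to 45427 in mutants and 19585 to 187404 in wild types. Below 0 were also 6 of 9 cap mesenchyme, 6 of 8 erythroid and 7 of 8 neural markers. The cap mesenchyme differences ran from -2.17 to 2.18, with sums of 19158 to 27783 in mutants and 20558.5 to 34980 in wild types. Erythroid sums were 33476 to 117092 in mutants and 49767 to 135120 in wild types, and neural sums 27197 to 57347 and 24483 to 43932. Of the macrophage markers, 8 of 11 were above 0 (median 0.39, sums of 3646 to 6763 in mutants and 1603 to 26806 in wild types). Read from its brightest probe set, no marker in these lists passed the test or had a group mean of 0, and the part of these cells in the respiratory chain values was not tested. The median signal of an array was 144 to 195, and the mean correlation of wild-type arrays 3 and 1 with the other arrays, at 0.849 and 0.859, was below that of the other 7 (0.877 to 0.901). The ratio of 3′ to 5′ probe sets of Gapdh, high after repeated amplification or RNA breakage, was 17.8 to 61.4 on mutant arrays and 12.4 to 87.6 on wild-type arrays (exact permutation test, two-sided, p = 0.921), and that of actin was 16.3 to 25.2 on mutant arrays and 14.7 to 21.7 on wild-type arrays (p = 0.19, exact permutation).

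Complex I, which takes electrons from NADH, had a median difference of 0.11, with 24 of 34 genes above 0. Its 6 nuclear core subunits, which bind NADH, carry the iron-sulfur clusters and reduce ubiquinone, had a median of 0.01, with 3 above 0 and 3 below. The 3 of the NADH-oxidising module, Ndufv1, Ndufv2 and Ndufs1, lay at -0.05, -0.06 and 0.07. Of the 3 of the quinone-binding module, Ndufs3 and Ndufs7 lay at -0.05 and 0.07 and Ndufs8 at 0.34 ± 0.19 (SE, adjusted p = 0.795). The 95% intervals of all 6 core genes lay within 1 log2 unit of 0. The 27 accessory genes, which encase the core and serve its assembly and stability, had a median of 0.12, with 20 above 0 and 7 below. A test of the core against the accessory genes was not made.

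Ndufa3, a small membrane-bound accessory subunit, had the greatest difference of any tested respiratory chain gene. Its signal was 5993, 16354, 15084 and 7404 on mutant arrays 1 to 4, against 4226, 5204, 8370.3, 2459 and 4546 on wild-type arrays 1 to 5. Mutant arrays 2 and 3 stood far above the other 7, and mutant arrays 1 and 4 fell below wild-type array 3, so the groups overlapped. The difference was 1.14 ± 0.40 (SE), a fold of 2.21 with an interval from 0.26 to 2.02 on the log2 scale and an adjusted p of 0.696. It stayed between 0.91 and 1.39 when each array in turn was left out, and the gene's other 2 probe sets gave 1.23 and 1.38 (adjusted p = 0.696 and 0.723). With wild-type array 3 left out the groups no longer overlapped.

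The other 2 genes at an unadjusted p under 0.05 are accessory subunits of the membrane arm as well. Ndufa13, also known as GRIM-19, had signals of 32397, 67991, 67267 and 45582 on mutant arrays, against 47432, 30505, 38563, 30014 and 43054 on wild-type arrays. Mutant arrays 2 and 3 were again the highest, mutant array 4 lay just above every wild-type array and mutant array 1 inside their range, and the difference was 0.41 ± 0.16 (SE, adjusted p = 0.722). Ndufa1, an X-linked subunit needed for assembly of the complex, had 36382, 57460.3, 63095 and 36665 on mutant arrays, against 37252, 28909, 44240.3, 29094 and 42682 on wild-type arrays, with a difference of 0.36 ± 0.16 (SE, adjusted p = 0.737). Mutant arrays 1, 2 and 3 exceeded every wild-type array and mutant array 4 lay inside their range. Mutant arrays 2 and 3, the highest for these 3 genes, also had the highest 3′ to 5′ ratios of both Gapdh (61.4 and 39.8) and actin (25.2 and 23.1) among the mutant arrays. The part of that in these 3 genes was not tested.

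**Figure D3:**
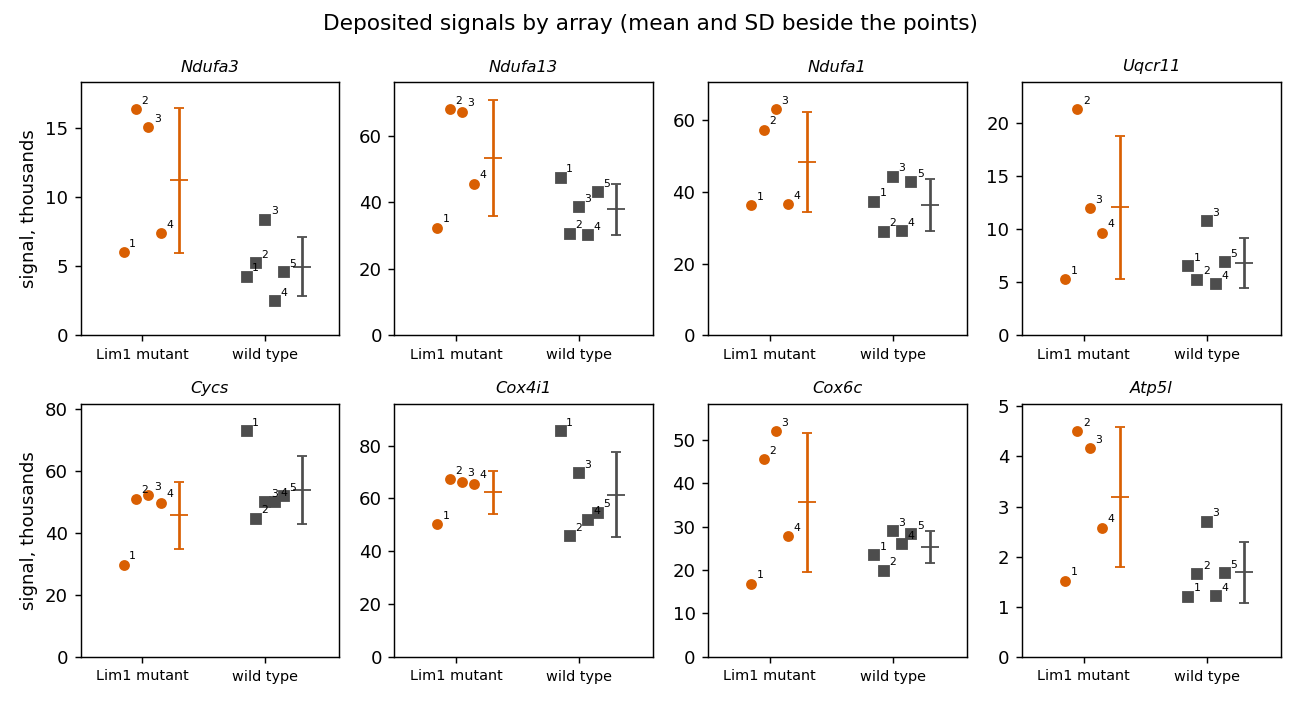
Deposited signal on each array for 8 genes described in the text, mutant arrays left of wild-type arrays, with each group's mean and SD beside the points. In Ndufa3, Atp5l and Uqcr11 mutant arrays 2 and 3 are above every wild-type array and mutant arrays 1 and 4 are not, and in every gene shown the groups overlap.

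Ndufa4 carries a complex I name, but its protein is now assigned to complex IV. It had 12951, 14634, 13777 and 11745 signal units on mutant arrays, against 8397, 10525, 15541, 4112 and 11064 on wild-type arrays. The 4 mutant values were close together, above 4 of the wild-type values and below that of wild-type array 3, and wild-type array 4 was far below the rest. The difference was 0.56 ± 0.32 (SE, adjusted p = 0.803), and without wild-type array 3 the groups did not overlap.

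At the low end of complex I, Ndufs5 differed by -0.50 ± 0.48, Ndufa9 by -0.29 ± 0.26 and Ndufb5 by -0.22 ± 0.17 (SE), with adjusted p-values of 0.89, 0.881 and 0.862. All 3 are accessory subunits, and Ndufa9 sits near the ubiquinone site. Ndufb4, another accessory subunit, was too dim to test: its signals of 229.5, 601, 73.1 and 103 on mutant arrays and 149, 23.7, 27.0, 93.5 and 27.3 on wild-type arrays overlapped widely. Ndufs4, whose loss causes a Leigh-like brain disease in mice, shows how far probe sets of a gene can disagree. The brightest of its 4 probe sets gave -0.12 ± 0.43 (SE, adjusted p = 0.978), and the other 3 gave 0.16, -0.39 and 0.94. In Ndufa10 the brightest probe set lay at 0.05 ± 0.32 (SE, adjusted p = 0.987), while a dimmer one lay at 2.16 ± 0.53 (SE, adjusted p = 0.475). The dimmer one, picked out after its values were seen, read 502, 543, 414 and 361 on mutant arrays, against 8.90, 257, 22.3, 137 and 39.7 on wild-type arrays, and its groups did not overlap.

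Complex II, succinate dehydrogenase, belongs both to the citric acid cycle and to the respiratory chain. Its 4 genes had a median difference of 0.16 and none passed the test. The catalytic pair in the matrix, the flavoprotein Sdha and the iron-sulfur protein Sdhb, lay at 0.13 ± 0.29 and -0.04 ± 0.19 (SE), with adjusted p-values of 0.957 and 0.984. The membrane anchors Sdhc and Sdhd lay at 0.26 ± 0.40 and 0.19 ± 0.24 (SE), with adjusted p-values of 0.94 and 0.922. Sdhb, read from 1 probe set, had 23769.8, 27662, 25551 and 35999 on mutant arrays, against 35538, 29953, 23065, 22576 and 31528 on wild-type arrays, with an interval from -0.45 to 0.38. Sdhd, whose GABP match is printed above, had 7836, 5496, 5882 and 6824 on mutant arrays, against 5894, 7072, 4478, 4949 and 6816 on wild-type arrays. The groups overlapped in both genes. Sdha had other tested probe sets at 0.44 and -1.21, so its sign depends on the choice of probe set.

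Complex III, the cytochrome bc1 complex, had a median of -0.08, with 4 of 9 genes above 0. That median was above 0, at 0.05, 0.04 and 0.05, without mutant array 2, mutant array 3 or wild-type array 2, and with median centring complex V had a median below 0 too (-0.03). Its catalytic subunits encoded in the nucleus, cytochrome c1 (Cyc1) and the Rieske iron-sulfur protein (Uqcrfs1), lay at -0.08 ± 0.11 and -0.10 ± 0.36 (SE, adjusted p = 0.927 and 0.978). The core proteins lay on either side of 0, with Uqcrc1 at 0.24 ± 0.24 and Uqcrc2 at -0.15 ± 0.16 (SE, adjusted p = 0.895 and 0.899). The widest range was among the small accessory subunits. Uqcr11 had 5249.8, 21285, 11972 and 9663 on mutant arrays, against 6493, 5207, 10732, 4797 and 6892 on wild-type arrays. Mutant array 2 was far above all the others, mutant arrays 1 and 4 lay inside the wild-type range, and the difference was 0.70 ± 0.38 (SE, adjusted p = 0.795). Uqcr10 lay at 0.42 and Uqcrq at -0.38 (adjusted p = 0.905 and 0.895), and Uqcrh, the hinge protein, at 0.07 (adjusted p = 0.984).

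Uqcrb, which contacts the ubiquinone-binding pocket, had the smallest standard error of the 79 tested genes. Its signals were 70068, 111308, 115422 and 94746 on mutant arrays, against 152614, 70509, 114803, 121546 and 99584 on wild-type arrays. The difference of -0.13 ± 0.07 (SE) had an interval from -0.29 to 0.03 and an adjusted p of 0.803. Wild-type array 3 was the only wild-type array inside the mutant range, and the other 4 lay above it. On the normalized values a change of 2-fold lies far outside the interval. Wild-type arrays 2, 4 and 5 had the same normalized value, though their deposited signals were 70509, 121546 and 99584. With no normalization between arrays the difference was -0.17 (limma adjusted p = 0.925).

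Cytochrome c, which carries electrons from complex III to complex IV and, once released from mitochondria, triggers apoptosis, is encoded by Cycs. Its upstream sequence is printed for the cyclic AMP response element TGACGTCA in capitals, a motif added to the search after this sequence had been read. It was present in 4 of 67 member promoters (5.97%, against 2.54% of coding genes). The NRF1, GABP, YY1 and ERRα letters searched had no exact match in this window. The window does hold tcgcatgcgc, which differs from the NRF1 letters only in its first base, and binding there was not tested.
Cycs, 250 bases before the start, chr6:50566570-50566819, minus strand: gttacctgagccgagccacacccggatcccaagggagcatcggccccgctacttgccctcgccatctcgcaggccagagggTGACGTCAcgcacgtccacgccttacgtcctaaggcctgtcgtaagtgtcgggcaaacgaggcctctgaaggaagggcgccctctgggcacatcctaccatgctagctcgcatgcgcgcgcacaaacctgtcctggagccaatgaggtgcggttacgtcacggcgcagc

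Cycs had 29741, 51162, 52186 and 49836 signal units on mutant arrays, against 72973, 44716, 50012, 50177 and 51999.6 on wild-type arrays. Mutant array 1 was the lowest on both scales. Wild-type array 1 was the highest as deposited, and wild-type arrays 1 and 2 were level at the top after normalization. The difference was -0.28 ± 0.14 (SE) with an interval from -0.57 to 0.02 and an adjusted p of 0.772. Among the other probe sets of Cycs, those tested gave -0.50 and -0.44 (adjusted p = 0.696 and 0.757), and one too dim to test gave 1.03. Leaving out each array in turn kept the difference between -0.34 and -0.16, and averaging over all of the probe sets brought it to -0.05.

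Complex IV, cytochrome c oxidase, had the highest median of the complexes with more than 1 gene, at 0.20, with 13 of 17 genes above 0. With a larger constant added before the log, the median of all values, it was 0.14, below the 0.16 of complex II. The 9 subunits made in most tissues had a median of 0.22, with 8 above 0, and for 8 of the 9 the interval lay within 1 log2 unit of 0. Cox4i1, a subunit needed for assembly, had 50258, 67291, 66289 and 65599.7 on mutant arrays, against 85507, 45687, 69654, 51902 and 54577 on wild-type arrays. Wild-type array 1 was the highest of all on both scales. Mutant array 1 was the lowest of its group as deposited but the highest of it after normalization, and the difference was 0.06 ± 0.11 with an interval from -0.17 to 0.30 (SE, adjusted p = 0.948). Cox6a1, whose promoter match is printed above, had 51749.6, 102467, 88392 and 73579 on mutant arrays, against 90896, 42027, 85593, 61555 and 64179 on wild-type arrays, a difference of 0.22 ± 0.12 (SE, adjusted p = 0.795). Cox5b lay at 0.23 ± 0.12, Cox6b1 at 0.26 ± 0.15, Cox8a at 0.26 ± 0.30 and Cox7a2 at 0.11 ± 0.11 (SE), with adjusted p-values of 0.795, 0.801, 0.914 and 0.894. In Cox5b the other probe sets gave 0.18, 0.29, 0.23 and 0.33, and a dim one -1.39.

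Cox6c, the highest of the widely expressed subunits, had 16848, 45532, 51965 and 27825 on mutant arrays, against 23349.8, 19804, 28913, 25944 and 28192 on wild-type arrays. Mutant arrays 2 and 3 lay well above all wild-type arrays and mutant array 1 below all of them. The difference was 0.33 ± 0.26 (SE, adjusted p = 0.861), and its other probe set gave 0.72. Cox7c lay at -0.24 ± 0.63 (SE, adjusted p = 0.967), the widest error of any member, with 416, 587, 572 and 1921 on mutant arrays, against 187, 889, 1329, 1428 and 1215 on wild-type arrays. Cox7a2l, a factor for assembly of respiratory supercomplexes, lay at 0.23 ± 0.19 (SE, adjusted p = 0.868).

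Complex IV is also the complex with the most tissue-restricted isoforms, found mainly in heart and skeletal muscle, lung or testis. Of 7 such genes, 5 were bright enough to be tested, and none of their intervals lay within 1 log2 unit of 0. Cox4i2, a lung isoform, averaged 244 ± 128 on mutant arrays and 183 ± 72.1 on wild-type arrays (SD, n = 4 and 5), a log2 difference of 0.20. The muscle isoform Cox6a2 averaged 268 ± 47.9 on mutant arrays and 221 ± 91.3 on wild-type arrays (SD), a difference of 0.20. The muscle isoform Cox7a1 averaged 155 ± 49.9 on mutant arrays and 246 ± 317 on wild-type arrays (SD), a difference of -0.22, and wild-type array 1, at 811, stood apart from the other 4 wild-type arrays at 90.1 to 134. The groups overlapped in all 3, and adjusted p-values were 0.961, 0.959 and 0.97. The testis isoforms Cox6b2 and Cox8c lay at 0.64 ± 0.51 and 0.39 ± 0.46 (SE, adjusted p = 0.866 and 0.916). Cox7b2, a testis isoform, and Cox8b, a muscle isoform, were too dim to test, with differences of -0.49 and -0.71. The 11 striated muscle markers had summed signals of 1261 to 1653 on mutant arrays and 1053 to 4360 on wild-type arrays, and their part in the muscle isoforms was not tested.

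**Figure D4:**
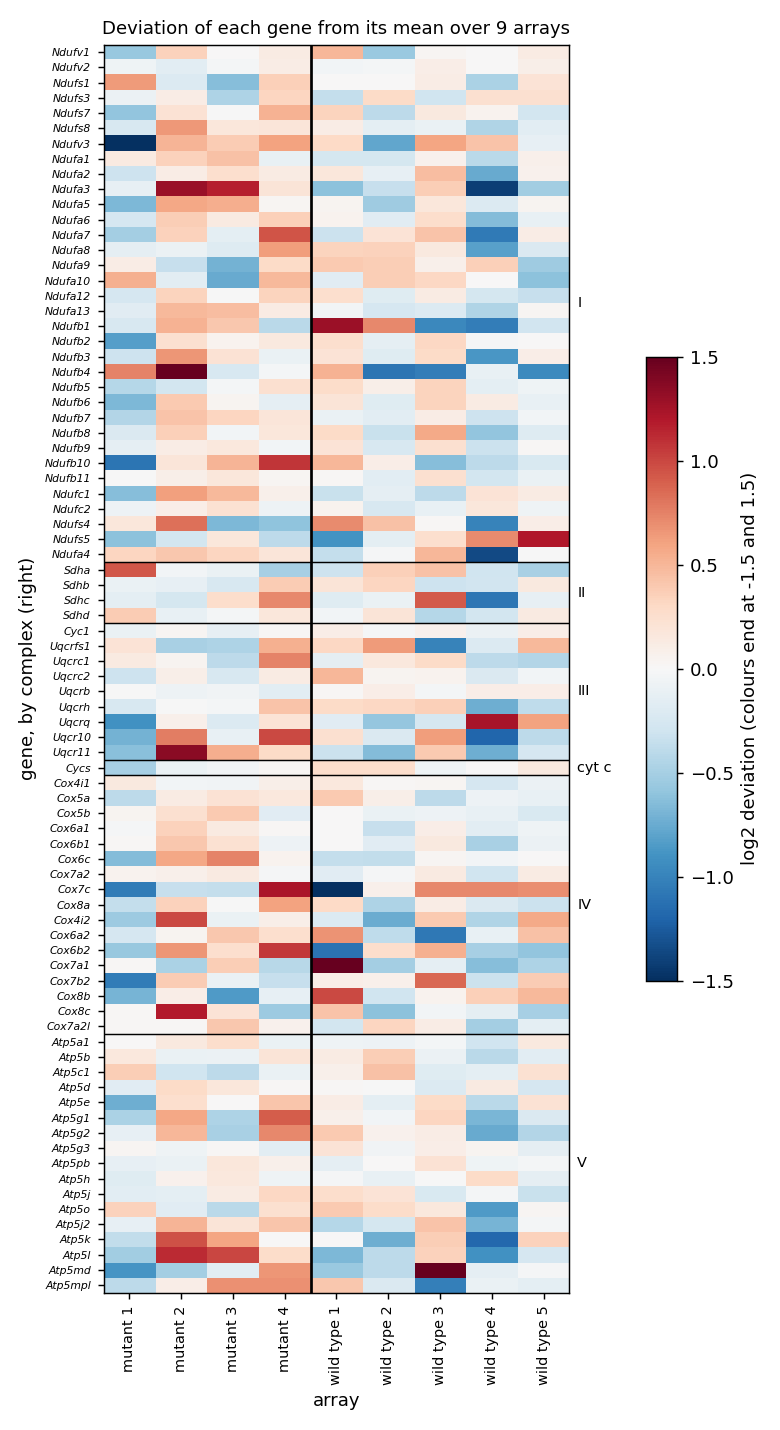
Deviation of each of the 82 genes from its mean over the 9 arrays (normalized log2 scale), genes ordered by complex, mutant arrays left of wild-type arrays. Wild-type array 4 and mutant array 1 hold the lowest value of 32 and 18 genes, and colours end at deviations of 1.5 in either direction.

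Complex V, ATP synthase, had a median of 0.07, with 12 of 17 genes above 0, and its structural parts differed in how evenly they were measured. The 5 genes of the F1 head and central stalk, where ATP is formed, had a median of 0.07, and the interval of each lay within 1 log2 unit of 0. Atp5b, the catalytic β subunit, lay at 0.07 ± 0.17, Atp5c1, the rotating γ subunit, at -0.19 ± 0.18 and Atp5e, the ε subunit, at -0.03 ± 0.27 (SE), with adjusted p-values of 0.963, 0.884 and 0.993. Atp5e, whose GABP match is printed above, had 6191, 12737, 10530.3 and 13483 on mutant arrays, against 11519.5, 9484, 12802, 7707 and 12461 on wild-type arrays. The 4 genes of the peripheral stalk, Atp5pb, Atp5h, Atp5j and Atp5o, lay between -0.01 and 0.06, with adjusted p-values of 0.973 or more. Their intervals were all within 1 log2 unit of 0, and those of 3 of the 4 within 0.5.

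The c ring, which turns as protons pass, is built from 1 mature protein that 3 genes encode with different import signals. Atp5g3 had 57438, 87211, 90832 and 72558 on mutant arrays, against 127594, 53262, 96042, 84874 and 67153 on wild-type arrays, and a difference of -0.07 ± 0.09 with an interval from -0.28 to 0.13 (SE, adjusted p = 0.924). Atp5g1 lay at 0.25 ± 0.35 and Atp5g2 at 0.28 ± 0.30 (SE, adjusted p = 0.934 and 0.908). A much dimmer tested probe set of Atp5g1 gave 1.54 ± 0.68 (SE, limma adjusted p = 0.744). Atp5g2, whose NRF1 match is printed above, had another tested probe set at -0.88. The intervals of the 3 genes overlapped.

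The small subunits of the membrane part had a median of 0.49, the highest of the structural groups with more than 1 gene, and 4 of 5 were above 0. They hold the dimer and the proton channel together, and 1 of the 5 had an interval within 1 log2 unit of 0. Atp5l, subunit g, had 1521, 4505, 4168 and 2581 on mutant arrays, against 1203, 1649.9, 2694, 1212 and 1668 on wild-type arrays. Mutant arrays 2 and 3 were the highest of the 9 and mutant arrays 1 and 4 lay inside the wild-type range. The difference was 0.85 ± 0.43 with an interval from -0.09 to 1.78 (SE, adjusted p = 0.785). Atp5k, subunit e and a gene with the NRF1 match, had 16938, 50403, 38605 and 22719.9 on mutant arrays, against 25116, 13539, 30913, 9918 and 29964 on wild-type arrays, a difference of 0.53 ± 0.36 (SE, adjusted p = 0.836). Atp5mpl lay at 0.49 ± 0.36 and Atp5j2, subunit f, at 0.45 ± 0.22 (SE, adjusted p = 0.849 and 0.773). The other probe sets of Atp5k gave 0.76 and 0.08, and those of Atp5j2 gave 0.71 and -0.29. Atp5md lay below 0 at -0.40 ± 0.51 (SE, adjusted p = 0.925), with 3037, 3747, 4869.5 and 8562 on mutant arrays, against 3668, 4274, 22052, 4948 and 5482 on wild-type arrays, where wild-type array 3 stood far above the rest. This grouping by structural part was made with the values known.

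A gene's other probe sets gave a check on these readings. The 82 genes had 86 further probe sets, of which 79 were tested. Their difference had the same sign as that of the brightest probe set in 58 cases and the other sign in 21. None was called, and the dimmer probe set of Ndufa10 was the 1 of 79 whose groups did not overlap, against 2.25% of all probe sets. At an unadjusted p under 0.05 there were 6 above 0 and 1 below, against the 3.8% and 2.87% of all probe sets given above. These 7 came from 6 genes, with 2 from Ndufa3, and probe sets of a gene are not independent of each other.

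**Figure D5:**
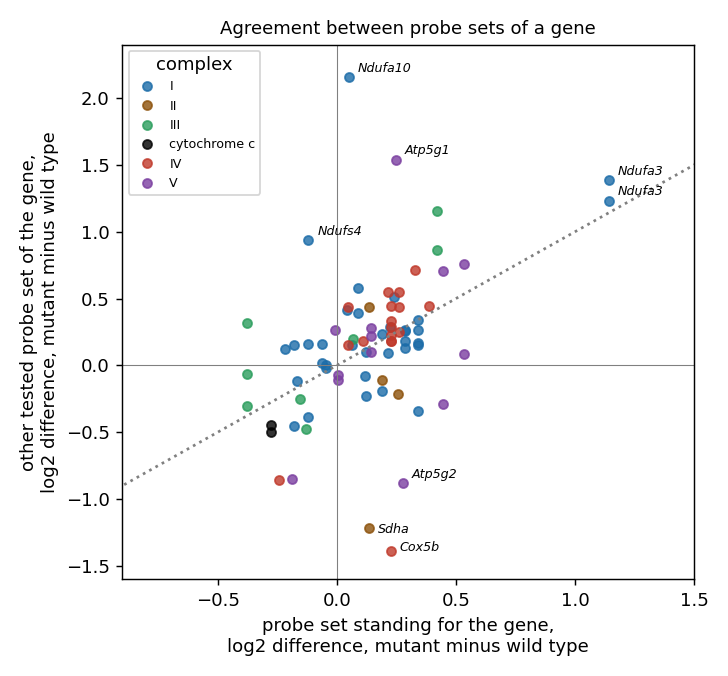
Log2 difference, mutant minus wild type, of the other tested probe sets of a gene (vertical axis) against that of its brightest probe set (horizontal axis). Of 79 points, 58 have the same sign on both axes, and the dim probe set of Ndufa10 lies highest, at 2.16.

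Differences were set beside the promoter motifs as well. Genes with an NRF1 match had a median difference of 0.19, with 11 of 15 above 0, against 0.10 in genes without one, with 34 of 52 above 0. With and without a GABP match the medians were 0.19 and 0.11, and with and without a YY1 match 0.12 and 0.12. A promoter can hold several of the motifs, and no test was made.

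Mitochondrial genes outside the chain itself were read from lists of known members. None of the genes in any of these lists passed the test. Of 46 assembly factors, which help build the complexes, 23 lay above 0 and 23 below, with a median of 0.03. Cox11, a copper chaperone for complex IV, had 3491, 2653, 3684 and 3448 on mutant arrays, against 5362, 5746, 11785, 7446 and 6584 on wild-type arrays, and every mutant array lay below every wild-type array on both scales. Its difference was -1.08 ± 0.29 (SE, adjusted p = 0.543). Cox19, another factor for copper delivery to complex IV, had 6047, 5504, 6129.9 and 6699 on mutant arrays, against 7779, 8366, 8344, 8041 and 10762 on wild-type arrays, again without overlap, and a difference of -0.48 ± 0.20 (SE, adjusted p = 0.735). Groups that did not overlap made up 2.25% of all probe sets.

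Of 20 regulators of mitochondrial biogenesis, among them the PGC-1 coactivators and the factors NRF1 and GABP, 8 lay above 0 and 12 below, with a median of -0.12. The 19 genes for upkeep and transcription of mitochondrial DNA had a median of 0.19, with 13 above 0. The mitochondrial ribosome, which makes the subunits encoded by mitochondrial DNA, had 41 of 76 genes above 0 and a median of 0.05. The cytosolic ribosome had 18 of 45 above 0 and a median of -0.03. Its Rps7 lay at -0.12 ± 0.07 (SE, limma adjusted p = 0.803), without overlap of the groups after normalization. Among pathways that feed the chain, the citric acid cycle with pyruvate dehydrogenase had 12 of 26 genes above 0 (median -0.03), fatty acid oxidation 10 of 16 (0.08) and glycolysis 5 of 16 (-0.12). Carriers, porins and import proteins of the mitochondrial membranes had 8 of 26 above 0 (median -0.06), and other electron inputs, uncouplers and antioxidant enzymes 10 of 18 (0.05).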

How the data were processed

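Gene expression in renal vesicles was measured on 9 Affymetrix arrays, 4 Lim1 mutant and 5 wild type, grouped by sample title. The authors deposited 1 linear intensity per probe set and array, made with GCOS, per the submitters' processing notes, by an algorithm and version not given in the sources used here. Symbols came from the platform annotation: of 45101 probe sets, 34958 had 1 symbol, 932 several and 9211 none. Signals quoted are the deposited intensities. For the differences, 42.4 (the 25th percentile of all values) was added, log2 was taken, arrays were quantile-normalized, 64 control probe sets were left out, and probe sets with a mean at or above the 40th percentile were fitted in limma 3.58.1 under R 4.3.3 (lmFit, eBayes with trend, two-sided). Overlap of groups was judged on the normalized values. The fit was tested on simulated data. Adding a constant before the log understates differences of dim genes.

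The genes and lists were chosen with earlier results of these data known. Genes named are the 3 highest and 3 lowest of complexes I, III, IV and V, and all of complex II and cytochrome c. Isoform sets and genes whose probe sets disagree in sign by over 1 log2 unit are named too. So are any respiratory chain gene past the threshold or without overlap, and up to 4 genes per other list. Others (core subunits, Ndufa1, Ndufa13, Cyc1, Uqcrfs1, Uqcrh, Atp5b, Atp5e, the peripheral stalk, Atp5j2 and the genes of the signal plot) were added after their values were seen. Alternatives were no normalization, median centring, other pseudocounts, no filter or one at the 60th percentile, no trend, array weights, the replicate number as a block, the mean over a gene's probe sets, and leaving out each array or wild-type arrays 1 and 3. Same-numbered arrays of the 2 groups did not deviate together (correlations of -0.04, -0.11, 0.02 and 0.05), so the numbers were not treated as pairs.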

Additional observations from a re-analysis of the deposited data

Results flagged for a closer look

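Within a group, 1 array stood far from the others in 5 of the 96 group comparisons made for named genes, where chance marks about 1 in 20. Mutant array 1 was low for 2 genes: Cycs, at 29741 against 49836 to 52186 on the other mutant arrays, and Cox4i1, at 50258 against 65600 to 67291. These are deposited signals, and after normalization mutant array 1 was the highest of the 4 mutant arrays for Cox4i1 and still the lowest for Cycs. Wild-type array 1 was low for Cox7c, at 187 against 889 to 1428 on the other wild-type arrays, and high for Cox7a1, at 811 against 90.1 to 134. Wild-type array 3 was high for Atp5md, at 22052 against 3668 to 5482.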

How the results depend on the processing

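Under all 20 alternatives 0 respiratory chain genes were called, and their lowest adjusted p lay between 0.475 and 0.999. Over all probe sets the calls numbered 9, and 0 with the replicate block or without wild-type arrays 1 and 3, 3 to 8 with 1 array left out, and 12 with array weights. The members' median, 0.11, ran from 0.02 with median centring to 0.21 without wild-type arrays 1 and 3, and from 0.05 to 0.19 with 1 array left out. With the replicate number as a block it was 0.09 and the lowest adjusted p among the members 0.671, and the block changed no call among them. Wild-type array 5, alone with its number, does not enter that difference. In 1 of 4 numbers a mutant array correlated best with its own number.

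The number of genes whose groups did not overlap, 0, was 0 to 5 with 1 array left out: 5 without mutant array 1 (Cox6c, Ndufa13, Ndufb7, Ndufs8 and Uqcrb), 2 without mutant array 4 (Cox5b and Ndufa1) and 3 without wild-type array 3 (Ndufa3, Ndufa4 and Uqcrb), where all probe sets gave 5%, 5.07% and 4.19%. It was 6 without wild-type arrays 1 and 3, against 7.78% of all probe sets. Fewer arrays make such gaps more common by construction. Cytochrome c lay at -0.048 as the mean over its probe sets.

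Among the named genes, 22 of 836 comparisons turned the sign, and the cause was not tested. Cox4i1 lay at -0.050 with median centring, and Cox7a1 at 0.064 with array weights. Without wild-type arrays 1 and 3, Cox7a1 lay at 0.42, Ndufs4 at 0.088 and Atp5g3 at 0.00443. As means over probe sets, Ndufs4 lay at 0.15, Sdha at -0.16, Cox5b at -0.023 and Atp5g2 at -0.32. With 1 array left out, Sdha ran from -0.15 to 0.32, Sdhb from -0.17 to 0.043, Ndufs4 from -0.42 to 0.080, Cox7c from -0.69 to 0.063, Cox4i2 from -0.094 to 0.42, Cox7a1 from -0.41 to 0.32, Cox6a2 from -0.045 to 0.39, Atp5g1 from -0.00740 to 0.45 and Atp5md from -0.69 to 0.051.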

Other observations

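Of the subunits encoded by mitochondrial DNA, 1 was picked out after its values were seen. ND5, a proton-pumping core subunit of complex I, had deposited signals of 48525, 41982, 43039 and 42475 on mutant arrays, against 40908, 37974, 36201, 40812 and 36447 on wild-type arrays. All 4 mutant values were above all 5 wild-type values as deposited, but the groups overlapped after normalization, and the log2 difference was 0.20 ± 0.17 (SE, limma adjusted p = 0.872).

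In the mitochondrial ribosome, Mrpl11, a protein of its large subunit, had 17299, 20289.7, 24556 and 20654 on mutant arrays, against 34089.5, 21981, 33694, 30223 and 35554 on wild-type arrays. The deposited signals of the groups overlapped. After normalization every mutant array lay below every wild-type array, with a difference of -0.58 ± 0.15 (SE, adjusted p = 0.496) that did not pass the test.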
